A study of Mus musculus with 9 samples.

Results

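Long terminal exons, the last exons of genes that run for 3000 bases or more, were followed through RNA immunoprecipitation sequencing (RIP-seq) of HuR in mouse liver. From the 210966 distinct exon rows of the deposited table, the most 3' row was taken for each of the 14826 gene names with at least 3 rows, and the longest row was used on ties. Of these terminal rows, 2648 were at least 3000 bases long, and 1947 of them were above 0 in at least 3 of the 6 RIP libraries and are the members described here. The members were thus selected on length and on RPKM values above 0 in the same RIP libraries, and no difference that this choice fixes is taken as a finding. Of the 701 long terminal exons left out, 118 were above 0 in no RIP library and 583 in 1 or 2. The study made 9 libraries from whole healthy liver of wild-type C57BL/6 mice aged 8 weeks: 3 HuR RIP libraries, 3 RIP libraries with IgG, the control antibody, and 3 Input libraries, made from the RNA of the lysate. No group carried a genetic change or a treatment, and each pull-down used the lysate of a single liver under native conditions, without cross-linking. Input is deposited only as 1 mean, so it has no replicate error. The stated purpose was to find the RNAs that HuR targets in mouse liver.

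HuR, encoded by Elavl1, is an RNA-binding protein of the ELAV family with RNA recognition motifs that bind stretches rich in U or in A and U. Such stretches lie mostly in 3' untranslated regions (3' UTRs) and in introns, and HuR binding is known to stabilise many mRNAs and to change their translation. The last exon of an mRNA usually holds the end of the coding sequence and most of the 3' UTR, so a long last exon is in most genes a long 3' UTR. In the liver HuR is known for its part in lipid handling, proliferation and the response to injury.

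In the GENCODE M21 annotation of mm10 (GRCm38), 1912 of the 1947 members had an exon with the same start and end, and 1911 were the last exon of the matched transcript. Protein-coding genes held 1864 members, long intergenic RNAs 16 and antisense RNAs 16. Of 1805 members matched to a coding transcript, all held 3' UTR, 1510 were 3' UTR over at least 80% of their length, and the median was 95.8%. In 68 of them the 3' UTR was the smaller part of the exon. Length ran from 3001 to 52270 bases with a median of 4189, against a median of 1276.5 bases over all 14826 terminal exons. A listed exon of another gene overlapped 336 members, and the counting is not stated to use strand, so reads of such pairs cannot be told apart. Another listed row of their own gene overlapped 1459 members. A small RNA gene lay within 37 members, on the same strand in 28.

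The windows below show what U-rich and AU-rich stretches look like in members that the results turn on. They were read from the GENCODE M21 transcripts, 5' to 3' on the strand of the gene, with T for U. In each exon the 30 bases with the most letters inside a searched motif were taken. Capitals mark every run of TTTTTTT, every element TTTATTT, every pentamer ATTTA and every heptamer TATTTAT, searched on the strand of the gene with overlaps allowed. Runs of T filled the windows of Igf1 (chr10:87935180-87935209, plus strand), Klkb1 (chr8:45268528-45268557, minus strand) and Slc35e2 (chr4:155622224-155622253, plus strand).
Igf1: ttgggttttgaTTTTTTTTTTTTTTTTTTT
Klkb1: gtctctaaTTTTTTTagaTTTTTTTTTTTT
Slc35e2: TTTTTTTTTTTgttgTTTTTTTTTgTTTTT
AU-rich repeats stood in Abcc2 (chr19:43840644-43840673, plus strand), Elovl6 (chr3:129636613-129636642, plus strand), Slc7a2 (chr8:40917696-40917725, plus strand), Prox1 (chr1:190118441-190118470, minus strand) and Elavl1 itself (chr8:4285776-4285805, minus strand).
Abcc2: ATTTAcagccagttcTATTTATcTATTTAT
Elovl6: ctatcattatTATTTATTTATtgTATTTAT
Slc7a2: tataaATTTATTTtctccctgtcTTTATTT
Prox1: ATTTAttggtttaATTTAtcctaATTTATT
Elavl1: TATTTATTTATTTATTTATTTTTATTTATT
Both kinds met in Rora (chr9:69381436-69381465, plus strand) and Cpeb2 (chr5:43288555-43288584, plus strand).
Rora: ttTTTATTTATTTgccTTTTTTTTTTTTTT
Cpeb2: gTTTTTTTaATTTAcagatcaTATTTATTT
For contrast, the best windows of Rxra (chr2:27761617-27761646, plus strand) and H6pd (chr4:149980406-149980435, minus strand), among the most abundant members, held few such bases.
Rxra: tcactaaggagaaaattggagcttcATTTA
H6pd: gtcaggaaatctgtttctctcctTTTATTT
A match is a description of the letters and says nothing about binding.

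The RIP libraries rest on 26.6, 26.3 and 26.9 M reads for HuR 1, 2 and 3 (M, mega) and on 15.9, 26.7 and 28.8 M for IgG 1, 2 and 3, with 27.9% to 60.5% of the reads in listed exons. IgG 1 was the shallowest library and stood closest to HuR: it was the highest of the IgG libraries in 1371 of the 1947 members. HuR 3 held a single exon, that of Ppp1cb, at a level far from the other libraries. The column names end in letters M and F that the labels do not explain, gene RPKM of Xist was 9.71 in HuR 2 and 0.00200 to 0.443 in the other RIP libraries, and the fold columns, read in file order, exchange HuR 2 and HuR 3. An exchange within the HuR group changes no group value. Gene sums of 16 hepatocyte markers took 0.57% to 1.21% of the listed reads with HuR and 0.237% to 0.54% with IgG, and those of 13 Kupffer and macrophage markers 0.00566% to 0.0191% and 0.0024% to 0.0108%. Their part in the results was not tested. In whole liver, fewer cells of a type and less RNA per cell cannot be told apart.

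By their medians, the members were more abundant in HuR RIP than in IgG RIP or Input. RPKM, reads per kilobase of exon and per M reads of the library (M, mega), had a median over the 1947 members of 0.342, 0.365 and 0.335 in HuR 1, 2 and 3, whereas in IgG 1, 2 and 3 it was 0.155, 0.0248 and 0, and in Input 0.0485. All 3 HuR medians lay close together and above every IgG median. These RPKM stand on few reads: the median member had 43.0, 43.0 and 39.0 reads with HuR and 11.0, 3.0 and 0 with IgG. An RPKM of 1 or more was reached by 581, 575 and 447 members with HuR, by 268, 31 and 113 with IgG and by 31 in Input. IgG 3, the deepest library, listed 1037 members at 0, IgG 2 listed 578 and IgG 1 listed 287.

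**Figure D1:**
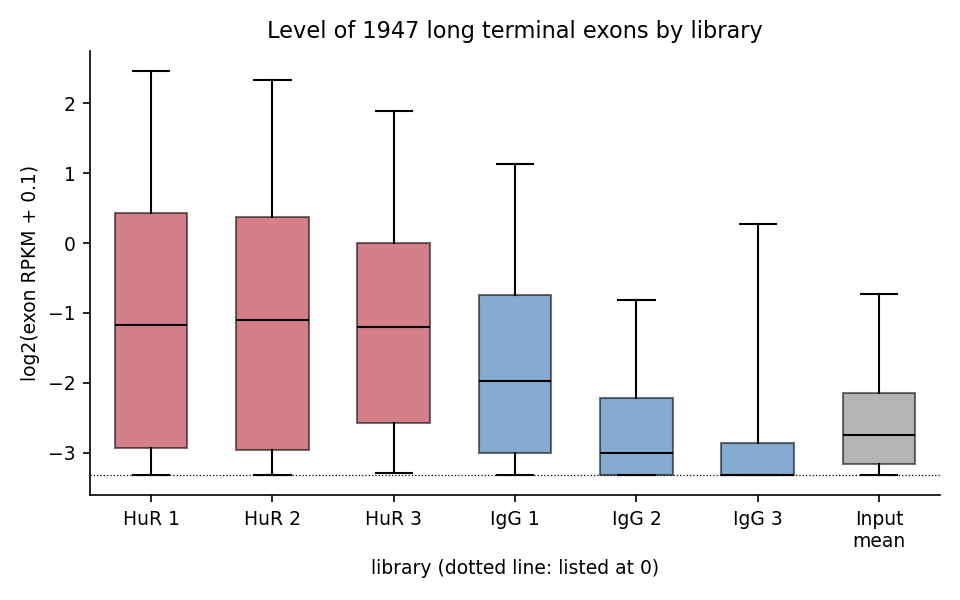
Level of the 1947 long terminal exons as log2(RPKM + 0.1) in each of the 6 RIP libraries and in the Input mean, with a line at the median, boxes over the middle 50% of exons and whiskers over the middle 90%. The HuR medians lie between 0.335 and 0.365 RPKM and those of IgG between 0 and 0.155 RPKM.

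As a share of all reads in listed exons, the members took 3.65%, 5.71% and 2.84% with HuR (mean 4.07% ± 1.48, SD, n = 3) and 3.99%, 1.02% and 2.13% with IgG (mean 2.38% ± 1.50, SD, n = 3), with 0.356% in Input. These shares overlapped between the groups. A single exon, that of Gm26917, carried most of the members' reads in every IgG library. Without it the members took 3.55%, 5.53% and 2.81% with HuR and 1.11%, 0.287% and 0.467% with IgG. Gm26917 was picked after its values were seen, as the member highest with IgG, so leaving it out had to lower the IgG shares and the gap that results is no finding. Without Ppp1cb, Malat1 and Scd1 as well, picked in the same way as members high with HuR, the shares were 2.60%, 3.69% and 1.30% against 0.853%, 0.217% and 0.330%. With the genes of the ribosomal repeat and of small structural RNAs (rRNA, snRNA, snoRNA and scaRNA classes) taken out of members and total alike, the shares were 9.38%, 11.9% and 13.6% with HuR and 3.70%, 0.997% and 2.40% with IgG. No test was run on this share, since the members were chosen with the data known.

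The question of the pull-down is which RNAs were more abundant with HuR antibody than with IgG. The levels of members given below are those of the terminal exon alone and do not stand for the whole RNA. The most abundant members with all 3 HuR values above all 3 IgG values were Scd1 (stearoyl-CoA desaturase, which makes monounsaturated fatty acids), Malat1 (a nuclear long non-coding RNA), Nat8f2 (an N-acetyltransferase), Klkb1 (plasma prekallikrein), Igf1 (the growth factor that the liver releases under growth hormone) and H6pd (the hexose-6-phosphate dehydrogenase of the endoplasmic reticulum). They stood higher with HuR by 4.48-fold to 7.5-fold between group means. Across the 1947 members, 737 (37.9%) had all 3 HuR values above all 3 IgG values, against 19.9% of all 40378 exons tested, and 8 (0.411%) had all 3 below, against 3.53%. The median log2 difference of the members was 1.25, and 90.9% were positive, against a median of 0.71 over all exons. No member passed the test: limma called 0 of 40378 exons, and the background of calls is 0%. With an unadjusted p below 0.05, 199 members were higher while 2 were lower, against a background of 10.2% and 2.24% of all exons, so the members' share, also 10.2%, did not exceed that of exons in general. The detection rule works towards such counts: 88 of the 737 members were above 0 in all 3 HuR libraries and in no IgG library, so they had to differ.

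Scd1 (chr19:44394451-44398118, minus strand) was the most abundant member with HuR apart from the single value of Ppp1cb, at 540.2, 519 and 636 RPKM with HuR and 212, 53.2 and 64.2 RPKM with IgG, and 57.9 RPKM in Input. The HuR values lay within a narrow range above all IgG values, of which IgG 1 was the highest (log2 difference 2.65, SE 0.93, limma adjusted p = 0.386). Malat1 had 307, 459.7 and 129 RPKM with HuR and 85.3, 16.5 and 27.3 RPKM with IgG, with 14.3 RPKM in Input. HuR 3 was the lowest HuR value and still above IgG 1, so the groups did not overlap (log2 difference 2.96, SE 1.03, limma adjusted p = 0.386). Its exon overlaps those of 3 predicted genes. Nat8f2 stood at 78.9, 49.3 and 70.8 RPKM with HuR and 29.3, 6.63 and 6.49 RPKM with IgG, without overlap (log2 difference 2.58, SE 1.07, limma adjusted p = 0.386). Klkb1 had 28.1, 24.1 and 17.1 RPKM with HuR and 9.57, 2.56 and 3.35 RPKM with IgG, again without overlap, in an exon that also overlaps Gm45753 (log2 difference 2.35, SE 1.12, limma adjusted p = 0.408). H6pd had 26.6, 17.8 and 13.2 RPKM with HuR and 6.55, 1.52 and 3.29 RPKM with IgG, without overlap (log2 difference 2.48, SE 1.16, limma adjusted p = 0.405). The lowest HuR value of each of these 5 exons exceeded its highest IgG value, and in each the highest IgG value was that of IgG 1. The exon of Sc5d, the sterol C5-desaturase of cholesterol synthesis, was at 23.7, 30.6 and 14.9 RPKM with HuR and 15.03, 1.70 and 1.20 RPKM with IgG, and IgG 1 reached past HuR 3, so its groups touched (log2 difference 2.76, SE 1.27, limma adjusted p = 0.401).

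**Figure D2:**
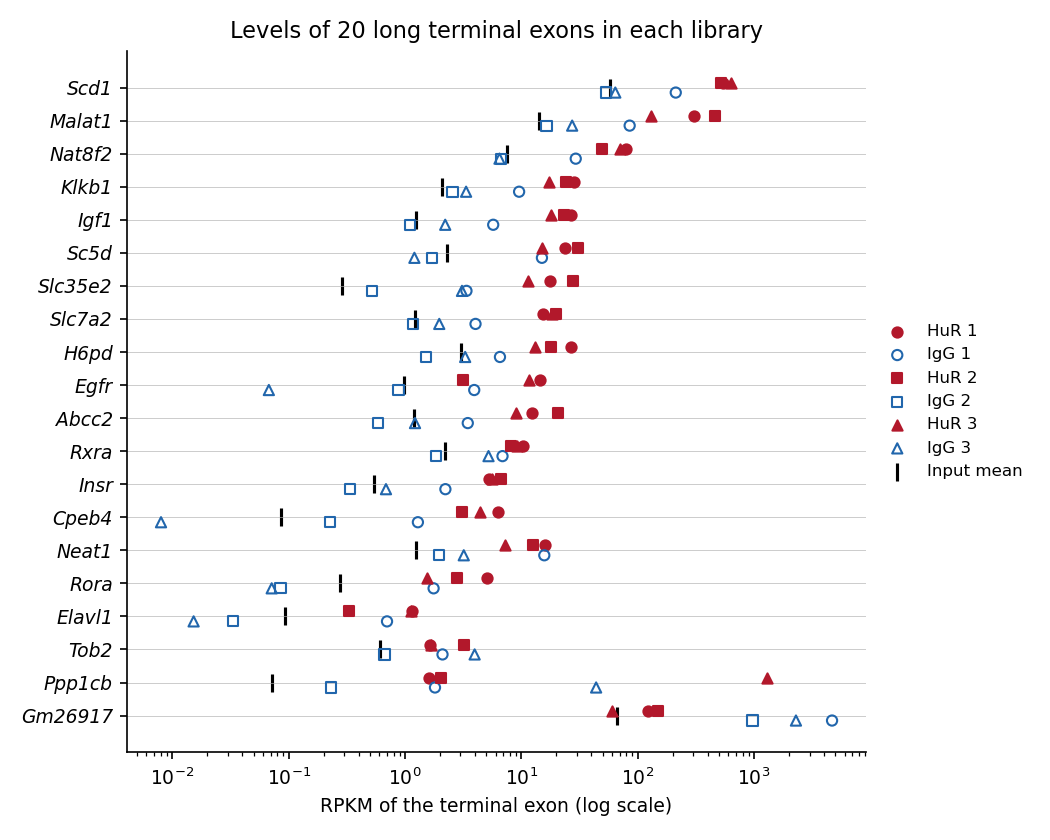
RPKM of 20 named long terminal exons in each HuR and IgG library and in the Input mean, on a log axis, 1 point per library. HuR values of Scd1, Malat1, Nat8f2, Klkb1 and Igf1 lie above all their IgG values, while Ppp1cb has 1 HuR value far from the other 2 and Gm26917 is higher with IgG.

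Genes of lipid and cholesterol handling held 7 members, of which 6 did not overlap between the groups, all with HuR higher. The share without overlap was 37.9% over all members and 19.9% over all exons. An unadjusted p under 0.05 was found for 3 (Scd1, Abcc2 and Abca1), against 10.2% of all exons. The 7 members had a median log2 difference of 2.65, against 1.25 over all members and 0.71 over all exons. Abcc2, the canalicular pump that exports conjugates into bile, had 12.3, 20.7 and 8.94 RPKM with HuR and 3.46, 0.583 and 1.22 RPKM with IgG (log2 difference 3.17, SE 1.27, limma adjusted p = 0.386). Abca1, which loads cholesterol onto apolipoprotein A-I, had 9.44, 3.24 and 2.60 RPKM with HuR and 1.40, 0.125 and 0.179 RPKM with IgG (log2 difference 3.28, SE 1.47, limma adjusted p = 0.394). HuR values of both lay above all IgG values, and Abca1 was far higher in HuR 1 than in the other HuR libraries. Elovl6, an elongase of long-chain fatty acids, was at 3.98, 7.60 and 2.93 RPKM with HuR and 1.88, 0.0851 and 1.09 RPKM with IgG, also without overlap (log2 difference 2.59). The exception was Osbpl8, an oxysterol-binding protein homologue of the endoplasmic reticulum, where IgG 1 (1.55 RPKM) exceeded HuR 3 (0.992 RPKM).

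Solute carriers of the liver list held 12 members. All 12 differences were positive (median 2.45), and 9 did not overlap, against 37.9% of all members and 19.9% of all exons. An unadjusted p under 0.05 was found for 3 (Slc7a2, Slc16a10 and Slc16a1), against 10.2% of all exons. Slc7a2, which imports arginine and other cationic amino acids, had 15.5, 20.04 and 18.4 RPKM with HuR and 4.04, 1.17 and 1.97 RPKM with IgG (log2 difference 3.02, SE 1.17, limma adjusted p = 0.386). The HuR values of Slc7a2 differed little from each other, and each exceeded the highest IgG value. Slc16a10, a carrier of aromatic amino acids, had 7.99, 5.79 and 2.77 RPKM with HuR and 0.619, 0.329 and 0.0896 RPKM with IgG (log2 difference 3.73, limma unadjusted p = 0.0212), and Slc16a1, the monocarboxylate carrier MCT1, 7.18, 4.88 and 2.05 RPKM with HuR and 0.335, 0.771 and 0.150 RPKM with IgG (log2 difference 3.23, limma unadjusted p = 0.0413). Slc2a2, the glucose transporter GLUT2 of hepatocytes, had 12.7, 6.74 and 8.32 RPKM with HuR and 3.20, 0.834 and 0.705 RPKM with IgG (log2 difference 2.74), and Slc35d1, a nucleotide sugar carrier, 19.7, 4.02 and 10.6 RPKM with HuR and 3.02, 0.856 and 1.70 RPKM with IgG (log2 difference 2.45). Neither gene overlapped between groups. Slc35e2, outside the list and among the 10 most abundant members, had 17.6, 27.7 and 11.3 RPKM with HuR and 3.38, 0.521 and 3.09 RPKM with IgG, without overlap (log2 difference 3.23, SE 1.25, limma adjusted p = 0.386).

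Insulin, IGF, growth hormone and EGF signalling held 16 members with a median log2 difference of 1.88, all positive. Of these, 7 did not overlap, against 37.9% of all members and 19.9% of all exons. Among ligands, Igf1 had 26.5, 23.4 and 18.01 RPKM with HuR and 5.73, 1.10 and 2.22 RPKM with IgG (log2 difference 3.15, SE 1.17, limma adjusted p = 0.386). Each HuR value exceeded the highest IgG value, that of IgG 1. Among receptors, Insr, the insulin receptor, had 5.30, 6.69 and 5.65 RPKM with HuR and 2.23, 0.338 and 0.687 RPKM with IgG, without overlap (log2 difference 2.68). Egfr had 14.5, 3.17 and 11.5 RPKM with HuR and 3.94, 0.878 and 0.0677 RPKM with IgG, and HuR 2 lay below IgG 1 (log2 difference 3.24, SE 1.54, limma adjusted p = 0.407). The other exons of these genes overlapped between groups. For Igf1 they had 1.25, 1.46 and 0.705 RPKM with HuR and 1.36, 0.393 and 2.16 RPKM with IgG. For Insr they had 0.151, 0.658 and 0.350 RPKM with HuR and 1.85, 0.252 and 2.15 RPKM with IgG. Those of Egfr had 2.13, 1.99 and 2.71 RPKM with HuR and 5.69, 2.53 and 0.954 RPKM with IgG. Downstream, the small GTPase Nras had 1.18, 0.537 and 1.30 RPKM with HuR and 0.240, 0 and 0.00471 RPKM with IgG. The smallest difference in the list was 0.32.

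Transcription factors and nuclear receptors of liver held 23 members. Of the 23, 15 were without overlap and HuR higher, against 37.9% of all members and 19.9% of all exons. None had all IgG values higher, against 3.53% of all exons. The median log2 difference of the 23 was 2.08, and 5 had an unadjusted p under 0.05 (Nfe2l1, Nfib, Zbtb16, Nr3c1 and Ppargc1a), against 10.2% of all exons. Rxra, the partner of many nuclear receptors, was the most abundant at 10.4, 8.16 and 9.24 RPKM with HuR and 6.89, 1.84 and 5.22 RPKM with IgG. Its groups did not overlap, yet the difference was small (log2 difference 1.16, SE 1.18, limma adjusted p = 0.623), and it changed sign, to -0.14, when libraries were scaled by trimmed means of log ratios (TMM). Nfe2l1, a factor of the proteasome response, had 7.44, 8.95 and 3.39 RPKM with HuR and 1.74, 0.387 and 0.326 RPKM with IgG (log2 difference 3.10, SE 1.39, limma adjusted p = 0.393). Zbtb16, a zinc finger repressor, had 3.93, 2.07 and 3.58 RPKM with HuR and 0.369, 0.256 and 0 RPKM with IgG (log2 difference 3.64, limma unadjusted p = 0.0257), and Nr3c1, the glucocorticoid receptor, 1.52, 3.77 and 1.07 RPKM with HuR and 0.501, 0.0245 and 0 RPKM with IgG (log2 difference 3.31, limma unadjusted p = 0.0404). The IgG 3 value of both was listed at 0. Ppargc1a, the coactivator of fasting gluconeogenesis, was low at 0.515, 1.28 and 0.0921 RPKM with HuR and 0.0156, 0.00307 and 0 RPKM with IgG, so its difference rests on few reads in IgG (log2 difference 2.37). Nfic, of the nuclear factor I family, had 7.92, 4.43 and 3.86 RPKM with HuR and 3.66, 0.415 and 1.10 RPKM with IgG, and Onecut2, a hepatocyte factor, 0.750, 0.605 and 1.03 RPKM with HuR and 0.278, 0.117 and 0.203 RPKM with IgG (log2 differences 1.98 and 1.59). Neither gene overlapped between groups. Prox1, a hepatocyte and lymphatic regulator, had 4.19, 2.66 and 2.03 RPKM with HuR and 1.80, 0.161 and 0.527 RPKM with IgG, without overlap (log2 difference 2.11).

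RNA-binding proteins that act on 3' UTRs held 11 members, 7 of them without overlap, against 37.9% of all members and 19.9% of all exons. Log2 differences of the 11 had a median of 2.14 and ran from 0.93 to 3.62. Cpeb4, a cytoplasmic polyadenylation element binding protein, had 6.33, 3.08 and 4.41 RPKM with HuR and 1.29, 0.228 and 0.00801 RPKM with IgG and was the only one with an unadjusted p under 0.05, against 10.2% of all exons (log2 difference 3.62, SE 1.49, limma adjusted p = 0.386). Its relative Cpeb2 had 2.70, 1.37 and 3.86 RPKM with HuR and 0.703, 0.237 and 0 RPKM with IgG, without overlap (log2 difference 3.08). The exon of Elavl1, which encodes HuR, had 1.14, 0.330 and 1.12 RPKM with HuR and 0.701, 0.0330 and 0.0153 RPKM with IgG, with 0.0925 RPKM in Input. HuR 2 lay below IgG 1 there, so the groups overlapped (log2 difference 1.91, SE 1.38, limma adjusted p = 0.511). Msi2, of the Musashi family, had 2.77, 1.997 and 1.24 RPKM with HuR and 0.538, 0.238 and 0.815 RPKM with IgG, without overlap (log2 difference 1.78). The microRNA and mRNA decay machinery held 13 members (median log2 difference 2.09), 9 without overlap, against 37.9% of all members and 19.9% of all exons. Ddx6, a decapping helicase, had 3.75, 8.80 and 5.21 RPKM with HuR and 2.72, 1.06 and 0.0654 RPKM with IgG and Btg1, which recruits the CCR4-NOT deadenylase, 2.94, 1.73 and 1.38 RPKM with HuR and 0.424, 0.0662 and 0.0536 RPKM with IgG, both without overlap. Tob2, another adaptor of that deadenylase, had 1.63, 3.23 and 1.68 RPKM with HuR and 2.10, 0.667 and 3.97 RPKM with IgG, with the highest value in IgG 3 (log2 difference 0.19, SE 1.39, limma adjusted p = 0.949). Its sign changed, to values from -1.06 to -0.12, without HuR 2, without IgG 2 and under 3 other scalings.

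Of 35 mRNAs published as HuR targets, 31 had at least 3 rows and 6 held a member (median log2 difference 1.83). Of the 6, 4 were without overlap, against 37.9% of all members and 19.9% of all exons. Beside Abca1 and Prox1 the 6 were Xiap, an inhibitor of caspases, at 3.28, 3.42 and 2.73 RPKM with HuR and 1.72, 0.355 and 1.41 RPKM with IgG, together with Foxo1, Cdkn1b and Bcl2. The groups of Xiap did not overlap (log2 difference 1.58). Long non-coding RNAs held 6 members, 2 of them without overlap, against 37.9% of all members and 19.9% of all exons. The median of these 6, 1.01, lay below the 1.25 of all members and above the 0.71 of all exons. Beside Malat1, Snhg11, a snoRNA host gene, stood at 1.68, 1.05 and 0.746 RPKM with HuR and 0.466, 0.195 and 0 RPKM with IgG, without overlap (log2 difference 2.23). Neat1, the scaffold of paraspeckles, had 16.04, 12.6 and 7.25 RPKM with HuR and 15.7, 1.97 and 3.20 RPKM with IgG. IgG 1 reached the level of HuR 1 there, so the groups overlapped (log2 difference 1.27, SE 1.23, limma adjusted p = 0.609), and under TMM scaling the difference was -0.031.

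Some members stood apart from this order. Ppp1cb, a catalytic subunit of protein phosphatase 1, had 1.61, 2.05 and 1293 RPKM with HuR and 1.81, 0.230 and 43.9 RPKM with IgG, with 0.0726 RPKM in Input. HuR 3 and IgG 3 were far above the other libraries of their groups, and the groups overlapped (log2 difference 2.48, SE 2.46, limma adjusted p = 0.616). Without HuR 3 the difference was -0.66. Gm26917 (chr17:39843013-39846341, plus strand), a long intergenic RNA gene annotated over the ribosomal repeat of that chromosome, had 121, 149.9 and 60.1 RPKM with HuR and 4676, 970.2 and 2289.5 RPKM with IgG, with 66.9 RPKM in Input. Every IgG value lay above every HuR value (log2 difference -4.40, SE 0.93, limma adjusted p = 0.386). When only terminal exons were fitted, it passed the threshold as lower with HuR (limma adjusted p = 0.0379). That fit called 41 terminal exons higher and none of them was a member. Ppan, a ribosome biogenesis factor, had 0.136, 0.101 and 0.173 RPKM with HuR and 2.71, 0.274 and 0.376 RPKM with IgG, and its groups did not overlap in the same direction, in an exon that holds 2 snoRNA genes. Snhg17, a snoRNA host gene, had 2.52, 3.75 and 1.58 RPKM with HuR and 25.6, 2.69 and 1.50 RPKM with IgG. IgG 1 was far above the rest, and without it the difference of -0.92 became 0.28. Pou6f1, a POU domain factor, had 0 RPKM in every HuR library, with 0.115, 0.0781 and 0.108 RPKM with IgG, the only member above 0 in all IgG libraries and no HuR library. It met the detection rule through IgG alone, so it had to differ in this direction, and its values lie near the pseudocount.

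Chosen after their values were seen, the members with the largest differences and no overlap included Sod2, the manganese superoxide dismutase of mitochondria, Lactb2, a mitochondrial ribonuclease, Serpinc1, antithrombin, and Tfam, the packaging factor of mitochondrial DNA. Sod2 had 12.1, 7.72 and 10.3 RPKM with HuR and 1.63, 0.158 and 0.0673 RPKM with IgG (log2 difference 4.56, SE 1.44, limma adjusted p = 0.386). Lactb2 had 21.96, 13.4 and 14.6 RPKM with HuR and 3.39, 1.12 and 0 RPKM with IgG (log2 difference 4.44, SE 1.52, limma adjusted p = 0.386). In both, each HuR value exceeded IgG 1, the highest control. Serpinc1 had 11.9, 4.83 and 9.14 RPKM with HuR and 2.55, 0.283 and 0.0242 RPKM with IgG, but its exon overlaps that of Zbtb37 on the opposite strand (log2 difference 4.03, limma unadjusted p = 0.0219). Tfam had 1.52, 1.56 and 1.10 RPKM with HuR and 0.00975, 0 and 0 RPKM with IgG, so its controls rest on few reads or none (log2 difference 3.84, limma unadjusted p = 0.00735). Mtdh, a membrane protein also called metadherin, differed by 3.77 and Adgrf5, an adhesion receptor, by 3.65 on the log2 scale, with 1 and 2 IgG libraries listed at 0.

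Median differences were larger at higher levels, an order that is fixed in part. Level is the mean over the RIP libraries and so includes the HuR values: members of 1 RPKM or more reached it mostly through HuR, with a median of 3.14 RPKM with HuR and 0.742 with IgG. The pseudocount of 0.1 RPKM also shrinks the differences of low exons. Members with a mean RIP RPKM of 1 or more (n = 328) had a median log2 difference of 2.48, and 218 of them did not overlap, HuR higher, against 22.3% of all exons in that class of level. Members between 0.25 and 1 RPKM (n = 662) had a median of 1.85 and 300 without overlap, against 21.3%, and those under 0.25 RPKM (n = 957) a median of 0.54 and 219 without overlap, against 16.2%. Length made less difference: the medians were 1.33, 1.23 and 1.12 for 855 members under 4000 bases, 753 from 4000 up to 6000 bases and 339 of 6000 bases or more. In the same order, 37.7%, 36.4% and 41.6% did not overlap with HuR higher, against 19.9% of all exons. The order by length thus depended on the measure. The shorter terminal exons had higher medians. Those from 500 up to 3000 bases (n = 4949) had a median of 1.49 with 34.1% not overlapping, and those under 500 bases (n = 948) a median of 1.97 with 33.1%. The 32534 other exons had 0.51 and 16.3%. Among exons of 5 RPKM or more the medians were 2.59 for the members, 2.93 and 3.32 for the shorter terminal classes and 0.14 for the other exons. In the same class of level, 78.0% of the members did not overlap, close to the 74.0% of terminal exons from 500 up to 3000 bases, while terminal exons under 500 bases had 52.1% and the other exons 14.7%. None of these differences between classes was tested.

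**Figure D3:**
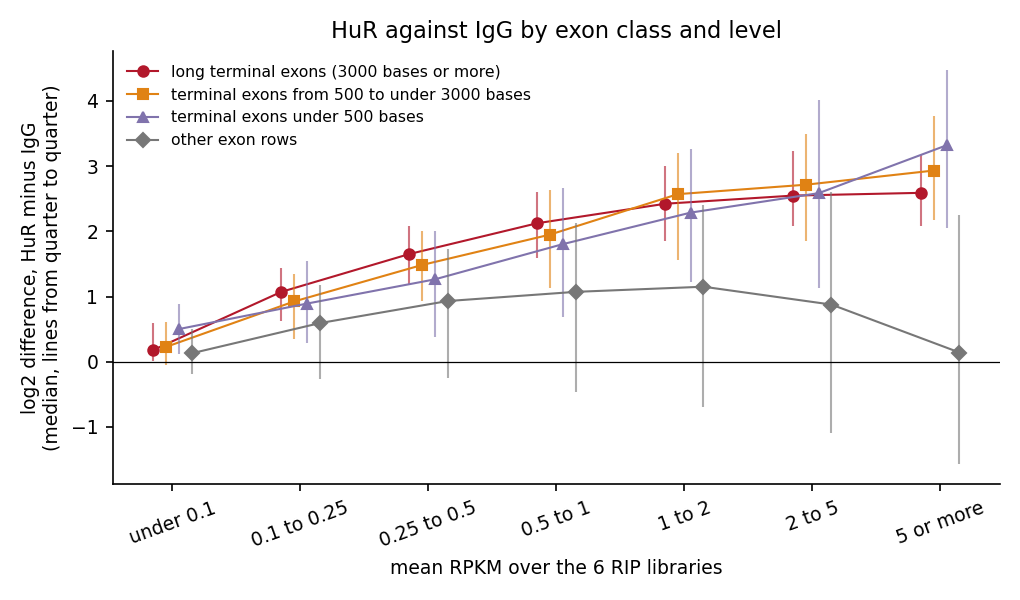
Median log2 difference between HuR and IgG by class of mean RIP RPKM, for long terminal exons, the shorter terminal classes and the other exons, with lines over the middle 50% of exons. At 5 RPKM or more the medians are 2.59 for long terminal exons, 2.93 and 3.32 for the shorter terminal classes and 0.14 for the other exons.

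The counts were also taken with libraries left out. Leaving out a library can only keep or raise a count without overlap, so such a rise is no finding. Without IgG 1, 1212 members (62.2%) did not overlap with HuR higher, against a background of 31.6%. Without both HuR 3 and IgG 1 it was 1288 (66.2%), against a background of 39%. Limma called 0 members in each fit that left out a library, and the 199 members with an unadjusted p under 0.05 became 287 without IgG 1 (background 10.6%), 15 without IgG 2 (3.49%) and 28 without IgG 3 (4.11%). They became 166 without HuR 1 (10.4%), 200 without HuR 2 (11.3%), 125 without HuR 3 (8.79%) and 240 without HuR 3 and IgG 1 (9.61%). The 8 members lower with HuR and without overlap became 16 without HuR 3 (background 5.03%), 23 without IgG 2 (6.16%) and 25 without IgG 3 (8.5%). With each library centred at its own median, the median difference was 0.28 for the members and -0.27 for all exons, and unadjusted p-values under 0.05 were found for 16 members higher and for 32 lower, against a background of 3.31% and 9.48%. Of the 1858 members above 0 in at least 1 library of each group, 649 (34.9%) did not overlap with HuR higher, against 15.3% of all exons under the same rule, and their median difference was 1.27.

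Against Input, the RNA of the lysate, the members stood higher in HuR RIP. In all 3 HuR libraries 1247 members (64.0%) were above the Input mean, against a background of 32.4% of all exons. The share was 53.3% for terminal exons from 500 up to 3000 bases and 42.7% for those under 500 bases. By the median log2 ratio of HuR over Input, these shorter classes stood at 1.52 and 1.52, above the 1.42 of the members. In all 3 IgG libraries 164 members (8.42%) were above it, against a background of 7.71%. The median log2 ratio over Input was 1.48, 1.50 and 1.40 in HuR 1, 2 and 3, and 0.71, -0.08 and -0.23 in IgG 1, 2 and 3. IgG 1 again lay between the HuR libraries and the other IgG libraries, with 75.4% of members above Input against 34.6% and 23.8%. Input, a single mean, allows no test.

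Within each gene, the terminal exon can be set against the rest. For each library the RPKM of the terminal exon was set over that of the other exons of the gene, as a log2 ratio with 0.1 added to both, in 5701 genes of which 1309 held a member. With HuR the median log2 ratio of the members was 0.96, 0.36 and 1.06, and with IgG it was 0.05, -0.09 and 0, with -0.20 in Input. All HuR medians were above all IgG medians. The 0.1 added to both parts pulls a ratio to 0 where reads are few, and both parts were listed at 0 in 41, 99 and 266 of the 1309 in IgG 1, 2 and 3, against 25, 36 and 11 in HuR 1, 2 and 3, so part of this gap follows from the low IgG levels. Gene by gene, 274 of the 1309 (20.9%) had all HuR ratios above all IgG ratios, against a background of 22.8%, and 36 had all below, against 1.86%. Limma called 0 members, and 1 of the 5701 genes (0.0175% higher, 0% lower). Unadjusted p-values under 0.05 were found for 150 members higher and for 5 lower, against a background of 18.1% and 0.649% of all genes. The median HuR to IgG difference in the ratio was 0.85 for the members, against 1.23 for terminal exons from 500 up to 3000 bases, 1.90 for those under 500 bases and 1.22 for all. For the 297 members of 1 RPKM or more, a class reached mostly through HuR, it was 2.01, and 102 of these (34.3%) did not overlap, against 37.1% of all genes whose terminal exon had that level. Centring each library at its median of the ratio over genes turned the members' median to -0.24, with 0.13 over all genes, and unadjusted p-values under 0.05 were then found for 34 members higher and for 87 lower, against a background of 7.37% and 5.02%. Without IgG 2 the 150 became 82, against a background of 12%.

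The smallest p-values belonged to Pitpnc1, a phosphatidylinositol transfer protein, Mtpn, myotrophin, an actin capping regulator, Serinc5, a membrane protein of the serine incorporator family, and Ugt2b34, a glucuronosyltransferase. For Pitpnc1 the log2 ratios were 4.20, 3.30 and 3.19 with HuR and -1.72, -3.65 and -6.03 with IgG (difference 7.36, SE 1.42, limma adjusted p = 0.0930). For Mtpn they were 5.56, 3.80 and 5.48 with HuR and 0.07, -1.23 and -0.90 with IgG (difference 5.63, SE 1.31, limma adjusted p = 0.0930). All HuR ratios of both genes were above 0 and above all IgG ratios, but the other exons of Mtpn were listed at 0 in all HuR libraries, so the pseudocount sets its HuR ratios. Serinc5 had 3.92, 4.52 and 5.28 with HuR and -1.88 and -0.83 with IgG 1 and IgG 2. In IgG 3 both its parts were listed at 0, so no ratio was measured there and the fit took 0, and its other exons were listed at 0 in HuR 2 and HuR 3 (difference 5.48, SE 1.28, limma adjusted p = 0.0930). Ugt2b34 had 4.86, 3.45 and 4.30 with HuR and -0.46, -1.85 and -0.73 with IgG (difference 5.22, SE 1.31, limma adjusted p = 0.0930). These 4 missed the threshold, and passed it when libraries were weighted (limma adjusted p from 0.0352 to 0.0377), as 3.02% of all genes then did. In the other direction the lowest unadjusted p-values were those of Knop1 (difference -3.72), in an exon shared with 9030624J02Rik, of Slc15a3 (-2.55), in one shared with Tmem132a, and of Gramd1b (-2.27) and Gsdme (-2.04). The terminal exon of Gramd1b had only 0 to 2.5 reads in the RIP libraries, so its other exons and the pseudocount set its ratios. The terminal exon of Gsdme was listed at 0 in HuR 2 and HuR 3, and that of Knop1 in HuR 1, HuR 2 and IgG 2.

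**Figure D4:**
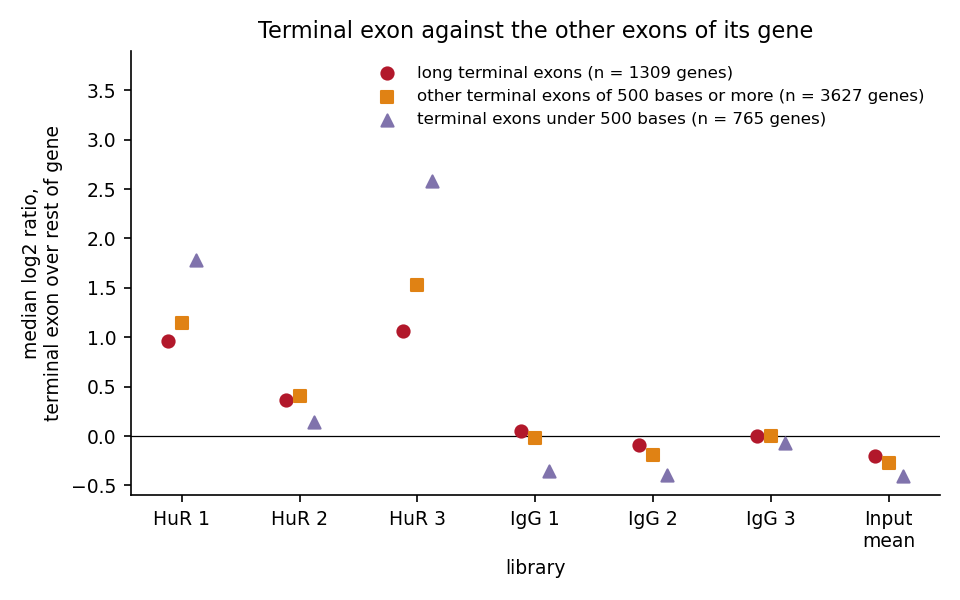
Median log2 ratio of terminal exon RPKM over the RPKM of the other exons of the gene in each RIP library and the Input mean, for 1309 long terminal exons and for shorter terminal exons of 500 bases or more and under 500 bases. For the long terminal exons the HuR medians are 0.96, 0.36 and 1.06 and the IgG medians 0.05, -0.09 and 0.

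The sequence of 1912 members could be read from the transcripts. They were richer in T than shorter terminal exons, with a median of 29.2% T against 27.5% for those from 500 up to 3000 bases (n = 4775) and 25.3% for those under 500 bases (n = 905). GC content ran the other way, at 43.8%, 46.9% and 48.8%. At least 1 TTTTTTT was in 82.2% of the members, 45.4% of terminal exons from 500 up to 3000 bases and 8.73% of those under 500 bases, and at least 1 ATTTA in 97.5%, 75.2% and 25.9%. TTTATTT was in 79.1%, 40.8% and 9.39%, and TATTTAT in 60.7%, 27.9% and 4.97%. These shares rise with the number of bases searched. Per kilobase, the mean number of TTTTTTT was 1.78 in the members and 1.72 in terminal exons from 500 up to 3000 bases, that of TATTTAT 0.245 and 0.2404, that of TTTATTT 0.474 and 0.419 and that of ATTTA 1.72 and 1.46. TTTTTTT and TATTTAT were in this measure nearly as dense in the mid-length class, and ATTTA and TTTATTT less so.

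Within the members, exons with more T showed larger differences between HuR and IgG. In 4 groups of equal size by T content, with median contents of 25.04%, 28.1%, 30.3% and 33.0%, the median log2 difference was 0.89, 1.14, 1.32 and 1.68 (n = 478 in each). The mean level differed too, with a median RPKM of 0.188 in the group lowest in T and 0.397 in the highest. Across the 1912 exons, Spearman's rho with the difference was 0.23 for T content, -0.18 for GC content, 0.15 for TTTTTTT, 0.14 for ATTTA, 0.09 for TTTATTT and -0.00038 for TATTTAT per kilobase and -0.05 for length. These are weak relations across exons that share 6 libraries, and exons are not independent replicates. In the 317 members of 1 RPKM or more, rho was 0.31 for T content, -0.39 for GC content, and 0.13 for TTTTTTT, 0.33 for ATTTA, 0.24 for TTTATTT and 0.10 for TATTTAT per kilobase. In 5680 shorter terminal exons it was 0.17 for T content and -0.20 for GC content, so the direction for these contents was not particular to long ones. For the motifs per kilobase, rho in the shorter exons was 0.03 for TTTTTTT, 0.07 for ATTTA, 0.003 for TTTATTT and -0.04 for TATTTAT.

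**Figure D5:**
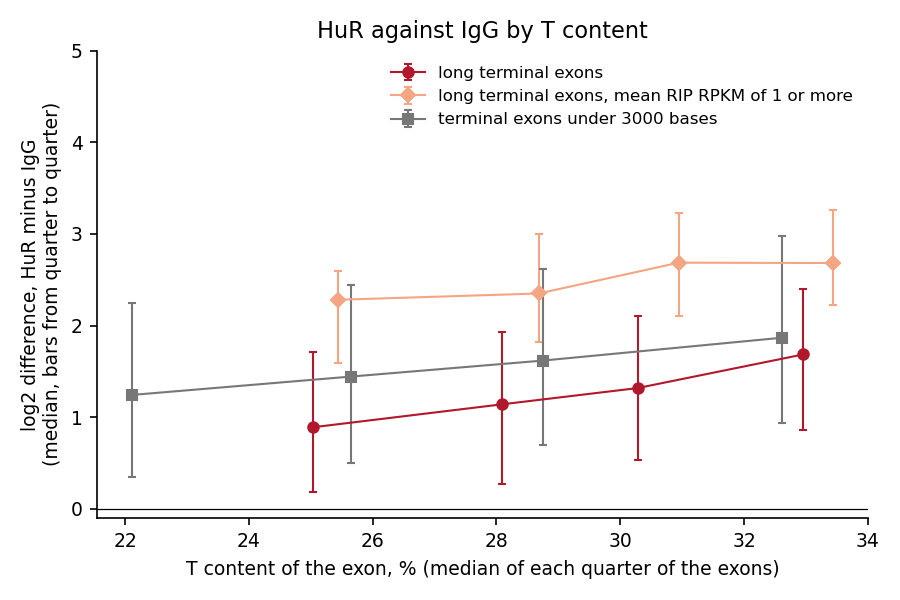
Median log2 difference between HuR and IgG in 4 equal groups by T content, with bars over the middle 50% of exons, for 1912 long terminal exons, for those of 1 RPKM or more and for terminal exons under 3000 bases. For the long terminal exons the medians are 0.89, 1.14, 1.32 and 1.68 from the group lowest in T to the highest.

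At the far end of length, 46 members reached 10000 bases. The longest with a named gene were D1Ertd622e (40044 bases), Zbtb20 (24280), Neat1 (20771), Hnrnpr (20029) and Zbtb37 (17485). Zbtb20, a repressor of alpha-fetoprotein in liver, had 4.06, 3.18 and 3.24 RPKM with HuR and 1.56, 0.468 and 0.537 RPKM with IgG, without overlap (log2 difference 2.08, SE 1.36, limma adjusted p = 0.486), and holds Mir568. D1Ertd622e had 0.0616, 0.0631 and 0.0504 RPKM with HuR and 0.0346, 0.00422 and 0.000866 RPKM with IgG, also without overlap but near the pseudocount (log2 difference 0.50). Hnrnpr, an RNA-binding protein of the nucleus, overlapped between groups at 0.0345, 0.258 and 0.108 RPKM with HuR and 0.0803, 0.00281 and 0.000866 RPKM with IgG (log2 difference 0.81). Both differences turned negative when libraries were centred at their medians (-0.48 and -0.17).

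At the edge of the length rule, the shortest members were Ccdc71 (3001 bases) and Clns1a (3002 bases), with 0.219, 0.0886 and 0 RPKM with HuR and 0.158, 0 and 0 RPKM with IgG for Ccdc71 and 0.0125, 0 and 0.514 RPKM with HuR and 0.515, 0.00625 and 0 RPKM with IgG for Clns1a. Just outside it, Trub1 (2997 bases) had 0.339, 0.00634 and 0.0992 RPKM with HuR and 0.137, 0 and 0.0116 RPKM with IgG, and Tollip (2999 bases) 0.906, 0.688 and 1.03 RPKM with HuR and 0.133, 0.200 and 0 RPKM with IgG. By detection, 335 members were above 0 in exactly 3 RIP libraries, 393 in 4, 593 in 5 and 626 in 6. An exon at that edge, 9930111J21Rik2, had 0.0748, 0.0925 and 0.0658 RPKM with HuR and 0, 0 and 0 RPKM with IgG, and AC013548.1, above 0 in 2 libraries and left out, had 0.00286, 0 and 0 RPKM with HuR and 0, 0.00286 and 0 RPKM with IgG.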

How the data were processed

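The authors deposited 1 table of RPKM values per exon for the 6 RIP libraries with a mean for Input, and log2 fold columns over Input. Bowtie2, featureCounts and mm10 are named, per the submitters' processing notes, with tool versions not given in the sources used here. Values of at least 1 lacked their decimal mark as deposited and were restored from their digits through the fold columns: all 138826 distinct sets of values matched all 6 folds, and 1 had more than 1 possible reading. The deposited values divide a row's reads between identical lines, so each was multiplied by its number of lines. Derived reads could still be fractional for exons on 1 line, as 195.48 for Clock in HuR 1. Whether reads are also divided between partly overlapping rows of a gene was not tested, and no such division was undone, so levels of these members may be understated. The authors' deposited p-values and q-values were not used. Read numbers were derived from RPKM, length and library size, whose own value came from the step between RPKM values; the Input depth is unknown.

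Exons above 0 in at least 3 of 6 RIP libraries (n = 40378) were fitted with limma 3.58.1 in R 4.3.3 (trend, robust, two-sided, Benjamini-Hochberg over all exons, threshold 0.05) on log2(RPKM + 0.1), which understates changes of low exons. The ratio of the terminal exon to the other exons was fitted likewise over 5701 genes. Rows of the gene that overlap its terminal exon were left out of the other exons. Each pull-down used the lysate of a single liver, but the sample titles name no animal. Whether HuR and IgG libraries of the same number came from the same liver is therefore not known. Their column names end in the same letter, and the main fit did not pair them. The exon fit was tested on simulated data with a smaller spread than that of the libraries. That test says nothing about its power here. Alternatives were other pseudocounts, scalings, filters, weights, thresholds, a replicate block and leaving out libraries.

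The members and gene lists were chosen with earlier results of these data known. Named were members past the threshold (none), the most abundant members, the 3 most abundant members of each list, a few genes followed by name (such as Elavl1 and Onecut2), those with the smallest p for the ratio and the longest; others were named after their values were seen (Gm26917, Ppan, Snhg17, Pou6f1, Sod2, Lactb2, Serpinc1, Tfam, Mtdh, Adgrf5, Bhlhe41, Osbpl8 and genes with an unadjusted p under 0.05 in a list).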

Additional observations from a re-analysis of the deposited data

How the results depend on the processing

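The number of long terminal exons called between HuR and IgG was 0 higher in all alternatives, across pseudocounts, scalings, filters, weights, thresholds and the left-out libraries, and 0 lower in all but the fit over terminal exons, which called 1. Their median difference of 1.25 was 0.53 and 0.32 with pseudocounts of 0.5 and 1 RPKM, 0.28 with centred libraries, 0.44 with quantile normalization, 0.68 with TMM scaling, 2.28 over the 604 members of 0.5 RPKM or more in 3 libraries, and 1.07 to 1.50 without 1 library. For the ratio of terminal exon to rest, 8 of 1309 members were called with weighted libraries, against 3.02% of all genes, and 4 of 208 with the 0.5 RPKM filter, against 5.08%, so members were called at a lower rate than genes in general. The median ratio difference was 0.42 and 0.27 with the larger pseudocounts, -0.24 with centred libraries and 0.77 to 1.13 without 1 library. Members without overlap, HuR higher, numbered 777 to 1212 without 1 library, against a background of 21.6% to 31.6% of all exons, and 1288 without HuR 3 and IgG 1, against 39%. Those with HuR lower numbered 10 to 25, against 4.26% to 8.5%, and 26, against 6.32%. Leaving out a library can only keep or raise these counts without overlap. The difference in the share of listed reads, 1.68 percentage points, was 0.864 to 2.49 without 1 library, 9.26 with ribosomal repeat and small structural RNA genes taken out, 4.38 as a share of terminal exons, 3.34 without Gm26917 and 5.26 with the structural genes, Ppp1cb, Malat1 and Scd1 taken out. The median over Input was 1.40 to 1.43 without 1 HuR library. Of 1367 results of single exons under an alternative, 1344 kept their direction and side of the threshold. That total is in part fixed: no member passed in the main fits, and alternatives such as the replicate block leave the difference itself unchanged. Sign changes were D1Ertd622e (-0.48 centred, -0.38 quantile), Hnrnpr (-0.17 and -0.19), Neat1 (-0.031, TMM), Rxra (-0.14, TMM), Ppp1cb (-0.66 to 4.41 without 1 library, lowest without HuR 3, and -0.99 without HuR 3 and IgG 1), Snhg17 (-1.72 to 0.28 without 1 library, highest without IgG 1, and 0.59 without both) and Tob2 (-0.46 to 0.74 without 1 library, -0.12 without HuR 2 and -0.46 without IgG 2, -0.78 centred, -0.91 quantile, -1.06 TMM). The cause was not tested. Deviations of same-numbered libraries correlated at -0.003, 0.016 and 0.001 across exons, and those of other pairs at -0.033 to 0.029. Values this small, from deviations within groups of 3, cannot show whether replicate numbers pair the samples. With the replicate number as a block, limma called 0 members in both comparisons, with 84 higher and 2 lower between HuR and IgG (background 7.65% and 2.14%) and 132 and 4 for the ratio (17.5% and 0.579%) at an unadjusted p under 0.05. The counts without overlap under left-out libraries, the Input medians under left-out libraries and the shares without named exons were added after seeing the data. The median member had 0 to 11.0 reads in an IgG library, which limits the precision of every difference.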

Other observations

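The circadian clock list held 6 members, 2 without overlap and HuR higher, against 37.9% of all members and 19.9% of all exons. Another 1 was without overlap and lower, against 3.53% of all exons. None had an unadjusted p under 0.05, against 10.2% of all exons higher and 2.24% lower. Rora, a nuclear receptor that drives Bmal1, had 5.08, 2.78 and 1.56 RPKM with HuR and 1.76, 0.0854 and 0.0716 RPKM with IgG, and IgG 1 exceeded HuR 3 (log2 difference 2.90). Tef, a PAR bZIP output factor, had 2.13, 3.28 and 1.46 RPKM with HuR and 1.70, 0.511 and 0.0459 RPKM with IgG and also overlapped between groups (log2 difference 2.07). Clock, the partner of Bmal1, had 1.05, 0.603 and 0.608 RPKM with HuR and 0.267, 0.0375 and 0.498 RPKM with IgG, without overlap (log2 difference 1.41). Bhlhe41, a repressor of the clock, had 0.0342, 0.00691 and 0.0203 RPKM with HuR and 0.0344, 0.123 and 0.0410 RPKM with IgG. Its HuR values all lay below its IgG values, at levels under the pseudocount or near it (log2 difference -0.43), and its exon overlaps Gm43909.

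Ubiquitin ligases and deubiquitinases held 13 members with a median log2 difference of 2.10. Of these, 7 were without overlap, against 37.9% of all members and 19.9% of all exons. March6, a ligase of the endoplasmic reticulum that acts on sterol enzymes, had 8.65, 10.7 and 5.28 RPKM with HuR and 1.36, 0.764 and 0.256 RPKM with IgG (log2 difference 3.38, SE 1.34, limma adjusted p = 0.386). It was the only one of the 13 with an unadjusted p under 0.05, against 10.2% of all exons. March8, a membrane ligase, had 2.84, 4.15 and 3.56 RPKM with HuR and 1.40, 0.377 and 0.0262 RPKM with IgG, also without overlap (log2 difference 2.99). Among markers of other liver cell types, none of the hepatocyte, Kupffer, stellate or lymphocyte and blood lists held a member. Ptprb, a phosphatase of endothelial cells, had 4.35, 15.2 and 3.49 RPKM with HuR and 2.05, 0.271 and 0.348 RPKM with IgG, with HuR 2 the highest and no overlap (log2 difference 3.14, SE 1.44, limma adjusted p = 0.400). The 13 endothelial markers as gene sums took 0.0123% to 0.0644% of the listed reads with HuR and 0.00355% to 0.0136% with IgG, 11 stellate cell markers 0.0027% to 0.0174% and 0.00139% to 0.00979%, and 13 lymphocyte and blood markers 0.0104% to 0.0184% and 0.0124% to 0.0263%. Of these, Cd8a and Nkg7 were at 0 in all RIP libraries. Sox9, of cholangiocytes, had 0.122, 0.271 and 0.818 RPKM with HuR and 0.163, 0 and 0 RPKM with IgG, with overlap, and the 8 cholangiocyte markers took 0.00316% to 0.00528% with HuR and 0.000491% to 0.00188% with IgG.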
